A study of Oryzias latipes with 10 samples.

Results

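The comparison of *yap* double mutants with wild type (WT) in whole medaka embryos at stage 16 rests on 7 RNA-seq libraries, 3 of double mutants and 4 of WT, of the 10 libraries of the series. The double mutants carry deletion alleles of *yap1* and of its paralog *yap1b* on both chromosome copies (yap-/- yap1b-/-) in every cell, so that no promoter or Cre line limits the loss to a single tissue, and WT embryos are of the iCab strain. No treatment is named, and all embryos were raised in the same medium and at the same temperature. RNA was extracted from single embryos, which were genotyped from their own DNA, before the RNA of embryos of the same genotype was combined. Every library thus stands for several embryos, and p-values rest on the spread between pools, with a limit for WT 4 that is given below. The 3 remaining libraries, of yap-/- single mutants, entered the fit to estimate the spread and are not described for themselves. Genes were kept where the mean count over the 10 libraries was at least 10, which left 16513 of the 24365 genes in the table. The comparison asks which transcripts depend on the *yap* pair while the body axis is being assembled.

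Yap is a transcriptional co-activator with no DNA-binding domain of its own. In the Hippo pathway the kinase Mst activates Lats, which phosphorylates Yap and keeps it out of the nucleus. Unphosphorylated Yap enters the nucleus and binds TEAD factors on DNA. Its activity follows the tension that a cell builds on its matrix through integrins, focal adhesions and actomyosin, and many of its known targets encode parts of that machinery or inhibitors that feed back on Yap. In fish gastrulae, cells of the lateral body converge on the midline by crawling over matrix and neighbours, which draws on the same adhesion and actin proteins.

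The total gene count was 28978596 to 38383959 in the WT libraries and 29521935 to 30627401 in the double mutant libraries, and no library was a copy of another. WT 4 stood apart from WT 1–3. Across genes, which are not independent replicates, Pearson's r of log2 CPM (counts scaled to the size of the library) of WT 1–3 with each other was 0.989 to 0.990, whereas WT 4 gave 0.951 to 0.952 with them and 0.958 to 0.970 with the double mutants. WT 4 exceeded 2 times the value of each of WT 1–3 at 663 genes (4.02%) and was more than 2-fold below each at 581 genes (3.52%). On the first principal component of the 500 most variable genes, which held 69.6% of the variance of the 7 libraries, WT 4 scored 19.1, the double mutants 29.99 to 34.69 and WT 1–3 −40.3 to −38.0. The single mutants gave an r of 0.960 to 0.987 with WT 1–3 and of 0.941 to 0.954 with WT 4. With the double mutants they gave 0.919 to 0.958 and among themselves 0.956 to 0.985. Their lowest r with WT 1–3 was thus close to their highest with the double mutants. The fit held a term for a set, with WT 1–3 and the single mutants forming the first set and WT 4 and the double mutants the other. No label gives these sets, which rest on expression values of the same libraries that are tested, and what sets WT 4 apart was not tested. This term leaves WT 4 as the sole reference of the double mutants, and WT 1–3 serve for the spread. As no other WT library shares the set of WT 4, the p-values and SEs of this fit do not cover how far WT 4 itself strays. The genes described in detail are therefore given library by library, with WT 4 apart, and the others by their log2 fold change from this fit. The latter values are changes against WT 4, and those against WT 1–3 can be smaller or larger.

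A differentially expressed gene (DEG) is one whose adjusted p was under 0.05. Of the 16513 genes, 334 were lower in the double mutants (2.02%) and 47 were higher (0.285%). The median log2 fold change over all tested genes was 0.01, that of the lower DEGs −1.62 and that of the higher DEGs 2.48. At least a 2-fold change was reached by 284 of the lower and 41 of the higher DEGs. All 3 double mutant libraries lay below all 4 WT libraries at 285 of the 334 lower DEGs (1.73% of tested genes), and above all 4 at 42 of the 47 higher DEGs (0.254%). This order of the libraries alone is frequent, since 15.7% of all tested genes lay below and 16.2% above all 4 WT libraries whatever their p. A fit without WT 4 and without the set term, in which the double mutants face WT 1–3, called 257 of the lower (1.56%) and 39 of the higher DEGs (0.236%) in the same direction, and all of these lay beyond all 4 WT libraries. It also called 21.3% of all tested genes lower and 22.2% higher, and in that fit genotype and set cannot be told apart. WT 4 was above all of WT 1–3 at 256 of the 334 lower DEGs (76.6%), against 44.7% of all tested genes, and 22 lower and 5 higher DEGs changed sign against WT 1–3. Single libraries weighed on these counts: the lower DEGs numbered 214, 220 and 213 without WT 1, WT 2 or WT 3 and 189 without double mutant 2, and the higher DEGs 27, 29 and 28 without WT 1, WT 2 or WT 3, 23 without double mutant 2 and 91 without single mutant 1. Of the 122 DEGs picked for naming, 48 lost their call without at least 1 library: 42 without double mutant 2, 26 and 24 without double mutants 1 and 3, 34, 30 and 30 without WT 1, WT 2 and WT 3, and 21 and 2 without single mutants 3 and 2. The number of such fits is given with the genes described. The whole embryo was sampled, so that fewer cells of a type and less RNA per cell cannot be told apart.

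**Figure D1:**
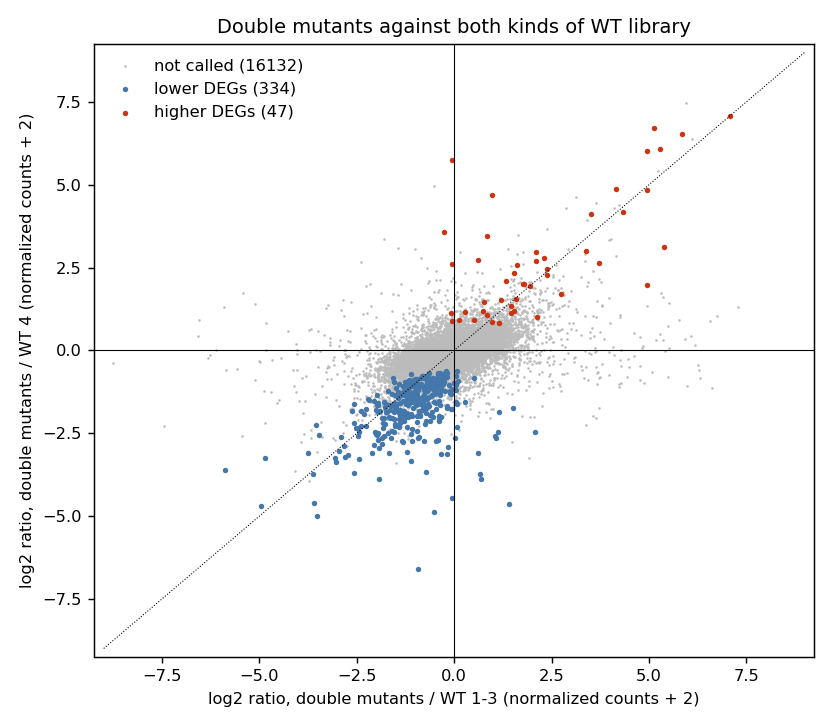
Each point is a tested gene, placed by the log2 ratio of the mean of the 3 double mutants to the mean of WT 1–3 (x axis) and to WT 4 (y axis), with 2 normalized counts added to each value. Blue points are the 334 lower DEGs and red points the 47 higher DEGs, grey points are genes not called, and the dotted line marks equal ratios. Most DEGs lie in the lower left or upper right part, and the blue points right of the vertical line are genes lower than in WT 4 but not than in WT 1–3.

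The targeted genes come first. *yap1* (chromosome 13, 6489854 to 6520557 of ASM223467v1 in the RefSeq annotation) had 9358, 9131 and 9028 normalized counts in WT 1–3, 5469.8 in WT 4 and 2707, 3148 and 3356 in double mutants 1–3. Its 3 double mutant libraries lay below every WT library, and WT 4 lay between them and WT 1–3. The log2 fold change was −0.83 (adjusted p = 0.021, SE 0.15), and −1.58 without WT 4. It lost its call in the fits that left out double mutant 2 (adjusted p = 0.0637) or any 1 of WT 1–3 (adjusted p of 0.0505 to 0.0525). *yap1b* (chromosome 14, 12999434 to 13012139) had 2416, 2269.6 and 2434 normalized counts in WT 1–3, 2704 in WT 4 and 846, 887 and 955 in double mutants 1–3. Here WT 4 was the highest library and the groups did not overlap. Its log2 fold change was −1.59 (adjusted p = 0.0018, SE 0.15), and −1.41 without WT 4. Reads from a gene with a deletion can still be counted, and the protein was not measured.

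Gene lists were drawn up by role, and a list member could be found only where the study's tables pair the identifier with a symbol. These tables are rich in genes that the study called, which sets another background. Of the 2118 tested genes with a symbol, 12% were lower DEGs and 0.614% higher DEGs, 45% lay below all 4 WT libraries, and their median log2 fold change was −0.60 against 0.04 for genes without a symbol. The counts below are therefore read against 12% rather than against 2.02%.

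Within the Hippo pathway, 8 of 29 tested members were lower DEGs (27.6%) and none was higher, with a median log2 fold change of −0.83 (−1.10 without WT 4). All 8 lay below every WT library. They include *yap1* and *yap1b* themselves. The other members were the DNA-binding partners of Yap, its membrane-bound angiomotin partners and members of the Ras association family. *tead1b*, a TEAD factor, had 1424, 1247 and 1318 normalized counts in WT 1–3, 1600.5 in WT 4 and 433, 629.6 and 599.9 in double mutants 1–3. The lowest WT library was above the highest double mutant library, and the log2 fold change was −1.53 (adjusted p = 0.00753, SE 0.21). Another TEAD factor, *tead4*, had 1302, 1208 and 1049.9 in WT 1–3, 1498 in WT 4 and 382, 589.9 and 687 in double mutants 1–3. Double mutant 1 was the lowest of the 3, and the gene fell at a log2 fold change of −1.44 (adjusted p = 0.0214, SE 0.26). The angiomotin-like gene *amotl2b*, whose product can hold Yap at junctions and is a known Yap target in mammals, had 3576, 3593 and 2879 in WT 1–3, 3348 in WT 4 and 834, 1255 and 1085 in double mutants 1–3. Here WT 4 lay within the range of WT 1–3. The log2 fold change was −1.66 (adjusted p = 0.00556, SE 0.21) with the set and −1.66 without WT 4. Its paralog *amotl2a* had 2184, 2225 and 1863 in WT 1–3, 2056 in WT 4 and 1067, 1263 and 1158 in double mutants 1–3, with −0.82 (adjusted p = 0.0476), and that call was lost in 7 of the 9 fits that leave out 1 library. *rassf7b* (−1.27) and *RASSF5* (−1.31), both of the Ras association domain family, also fell. The call was lost for *tead4* in 1, *rassf7b* in 1 and *RASSF5* in 5 of the 9 fits without 1 library.

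The Hippo kinase *lats2*, which phosphorylates Yap and is itself a Yap target in mammals, did not pass the test although its groups did not overlap. Its values were 8019, 6908 and 7509.7 in WT 1–3, 5131 in WT 4 and 1902, 2820.1 and 2988 in double mutants 1–3. WT 4 lay below WT 1–3, and the log2 fold change was −0.997 (adjusted p = 0.123, SE 0.27), against −1.54 without WT 4. *lats1* (−0.86, adjusted p = 0.503) and the scaffold gene *wtip* (−0.92, adjusted p = 0.161) likewise missed the threshold, as did the atypical cadherin gene *fat2* (−1.80, adjusted p = 0.349). No member rose, and the most positive value, that of the co-factor *vgll3*, was 0.40 (adjusted p = 0.835).

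Among Yap and TEAD targets, 7 of 23 tested members were lower DEGs (30.4%) and none was higher. The median log2 fold change was −1.17 and −1.43 without WT 4. Some members (*marcksl1b*, *akap12b*, *col1a1b*, *sorbs3*, *pcdh7a* and *cdc42ep3*) were picked as targets in the study partly from these libraries, so that the count is not independent evidence of direction. *ccn1* (chromosome 4, 17105333 to 17108058), which encodes the secreted matricellular protein Cyr61 and is a long-known Yap target, had 963, 868 and 656 normalized counts in WT 1–3, 906 in WT 4 and 138, 151 and 156 in double mutants 1–3. The lowest WT value was more than 4 times the highest double mutant value, and the 3 double mutants were close together. The mean of WT 1–3 was 5.59 times and WT 4 was 6.11 times that of the double mutants, at a log2 fold change of −2.61 (adjusted p = 0.0018, SE 0.25). Its relative *ccn2a*, which encodes connective tissue growth factor, had 307, 347 and 178 in WT 1–3, 160.2 in WT 4 and 4.8, 31.8 and 37.6 in double mutants 1–3. Double mutant 1 was almost without reads, and the log2 fold change of −2.68 (adjusted p = 0.0906, SE 0.68) missed the threshold. *ccn6* fell at a log2 fold change of −1.46 (adjusted p = 0.00634), with 169, 163 and 165 normalized counts in the double mutants and 457 in WT 4. WT 4 was its highest library (411 raw counts against 346, 333 and 281 in WT 1–3), so that the fall was smaller against WT 1–3. *ccn5* had −2.50 (adjusted p = 0.148). All 4 CCN genes tested lay below every WT library, as did 45% of tested genes with a symbol.

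The genes for MARCKS-like proteins, which tie actin filaments to the plasma membrane, were abundant and fell. *marcksl1b* (chromosome 11, 26663508 to 26665784) had 6488, 7094 and 6390.0 normalized counts in WT 1–3, 6083 in WT 4 and 1264, 1367 and 1149.8 in double mutants 1–3. Its 4 WT libraries lay close together, WT 4 included, and were 5.28 times (WT 1–3) and 4.83 times (WT 4) the double mutants. The log2 fold change was −2.27 (adjusted p = 0.0183, SE 0.40), and the call was lost in 2 of the 9 fits without 1 library. *marcksl1a* had 46387, 51667 and 43013 in WT 1–3, 42869.6 in WT 4 and 14149.5, 14299 and 13218 in double mutants 1–3. It fell at a log2 fold change of −1.63 (adjusted p = 0.0128, SE 0.26). *akap12b*, a scaffold for protein kinase A and C with a MARCKS-like membrane-binding region, had 32543, 28417 and 31609.8 in WT 1–3, 33598 in WT 4 and 7603, 13275 and 11692 in double mutants 1–3. The lowest WT value was more than 2 times the highest double mutant value, and the log2 fold change was −1.63 (adjusted p = 0.014, SE 0.27).

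**Figure D2:**
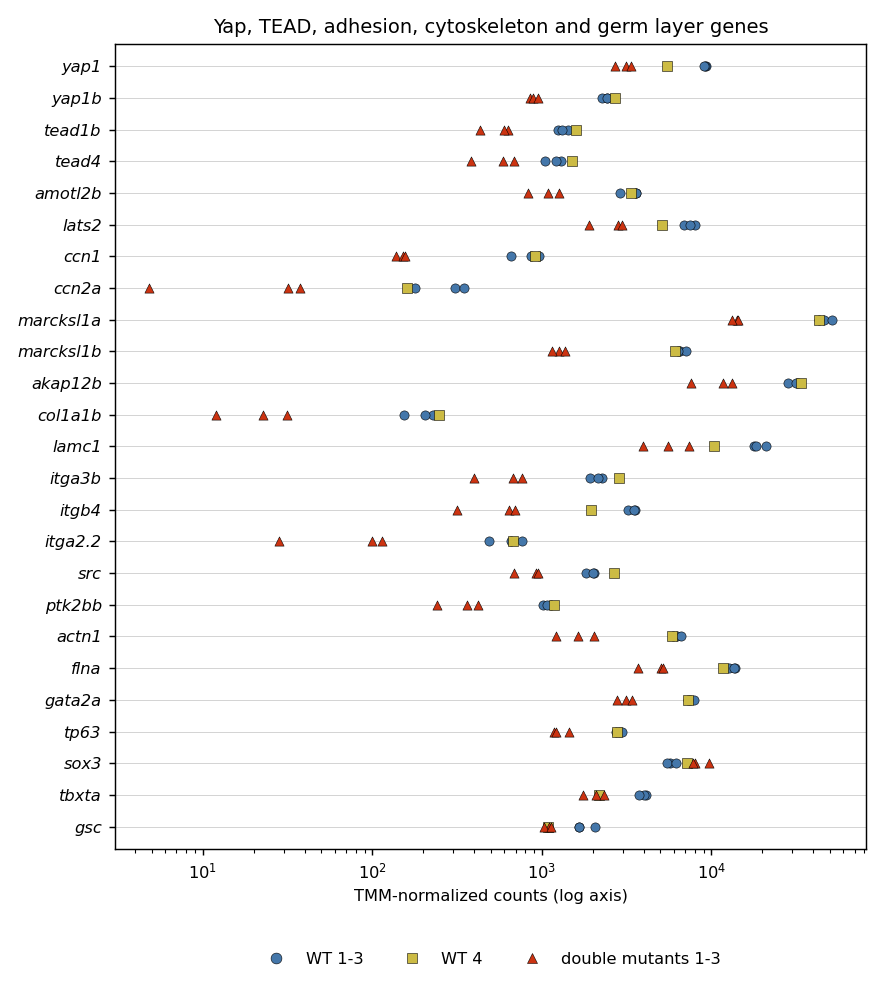
Normalized counts (log axis) of 25 genes in WT 1–3 (circles), WT 4 (square) and double mutants 1–3 (triangles), each marker 1 library. From *yap1* to *tp63* the triangles lie left of every WT library, with WT 4 either among WT 1–3 (*ccn1*, *amotl2b*), above them (*src*, *itga3b*) or between them and the double mutants (*yap1*, *lats2*, *lamc1*). At *tbxta* and *gsc* WT 4 lies with the double mutants, and *sox3* is slightly higher there.

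Integrins are the receptors by which cells grip the matrix. Of 13 integrin subunit genes tested, 5 were lower DEGs (38.5%), of which 4 lay below all 4 WT libraries. *itga2.2*, an alpha subunit related to collagen receptors, had 657, 487 and 767 in WT 1–3, 672 in WT 4 and 99.6, 113 and 28.2 in double mutants 1–3. The mean of WT 1–3 was 7.92 times that of the double mutants, at a log2 fold change of −3.07 (adjusted p = 0.0267, SE 0.58). The alpha subunit *itga3b* had 2277, 1929 and 2154 in WT 1–3, 2836 in WT 4 and 399.6, 759 and 677 in double mutants 1–3, and fell at a log2 fold change of −2.21 (adjusted p = 0.0092, SE 0.33). *itgb4*, whose product links hemidesmosomes to keratins, had 3562, 3239.8 and 3485 in WT 1–3, 1955 in WT 4 and 314, 644 and 694 in double mutants 1–3. WT 4 was the lowest WT library there and still more than 2 times the highest double mutant. The log2 fold change was −1.83 (adjusted p = 0.0375), against −2.64 without WT 4. *itgb3a* fell at a log2 fold change of −2.03 (adjusted p = 0.0267). WT 4 was its highest library (1687 normalized counts against 1094, 811 and 1187 in WT 1–3), so that the fall was smaller against WT 1–3. *itga10* differs from these, with 3.21, 1.78 and 8.16 in WT 1–3, 131 in WT 4 and 2.4, 6.81 and 3.13 in double mutants 1–3. Only WT 4 was high, the double mutants overlapped WT 1–3, and the log2 fold change of −4.95 shrank to −0.08 without WT 4. The broadly used beta subunit *itgb1a* had −0.25 (adjusted p = 0.802). Leaving out 1 library ended the call of *itga2.2* in 4, *itgb4* in 5 and *itgb3a* in 5 of 9 fits.

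Among collagens, laminins and other matrix genes, 13 of 52 tested were lower DEGs (25%), 12 of them below all WT libraries, and none was higher. Their median log2 fold change was −0.99 (−1.08 without WT 4). The fibrillar collagen gene *col1a1b* had 228, 153 and 206 normalized counts in WT 1–3, 248 in WT 4 and 12, 22.7 and 31.3 in double mutants 1–3. Every double mutant was below every WT library, WT 1–3 being 8.89 times and WT 4 11.3 times their mean, with a log2 fold change of −3.48 (adjusted p = 0.00612, SE 0.45). Other fibrillar collagen genes fell with it: *col1* with −2.39, *col5a2a* with −1.61 and *col1a2* with −1.88, the last with WT 4 at 313 against 136, 114 and 128 in WT 1–3. *frem1a*, of the Fraser complex that anchors epithelium to the basement membrane, had 1288, 1075 and 1220.3 in WT 1–3, 1068 in WT 4 and 101, 248 and 272 in double mutants 1–3. Its WT libraries were alike and the double mutants lower by more than 3 times, with a log2 fold change of −2.36 (adjusted p = 0.0164, SE 0.40). *emilin2b* (−2.06, adjusted p = 0.00353), the fibulin gene *fbln1* (−1.03, adjusted p = 0.01) and the hyaluronan link protein gene *hapln3* (−1.47, adjusted p = 0.0029) fell as well. In normalized counts WT 4 was the highest library for these genes, so that the falls were smaller against WT 1–3. *emilin2b* had −1.29 without WT 4. Without 1 library the call was lost for *col1* in 1 and *col1a2* in 1 of 9 fits.

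At 1 basement membrane gene the WT libraries disagreed. *lamc1*, the gamma subunit common to most laminins, had 21116, 17929 and 18295 in WT 1–3, 10382 in WT 4 and 3925, 5577 and 7415 in double mutants 1–3. The groups did not overlap, yet WT 4 lay far below WT 1–3 and the double mutants differed almost 2-fold among themselves. Its log2 fold change was −0.88 (adjusted p = 0.413, SE 0.39) against −1.76 without WT 4, so that genotype and set cannot be told apart there. Fibronectin (*fn1*) had −0.48 (adjusted p = 0.715), and −2.15 without WT 4.

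Focal adhesion genes gave 8 lower DEGs among 34 tested (23.5%), all below every WT library, and none higher. *src*, the tyrosine kinase that acts on adhesion proteins and upstream of Yap, had 2032, 1814 and 2015 normalized counts in WT 1–3, 2659 in WT 4 and 686, 923 and 950.5 in double mutants 1–3. WT 4 was the highest library and the log2 fold change was −1.64 (adjusted p = 0.00406, SE 0.19), with −1.19 without WT 4. The focal adhesion kinase relative *ptk2bb* had 1134, 1011 and 1075 in WT 1–3, 1181 in WT 4 and 240.0, 419 and 363 in double mutants 1–3. The WT libraries differed little, and the log2 fold change was −1.79 (adjusted p = 0.00643, SE 0.24). *actn1*, which encodes the actin cross-linker alpha-actinin, had 6305, 5968 and 6598 in WT 1–3, 5855 in WT 4 and 1218, 1645 and 2019 in double mutants 1–3. Its fall was −1.85 (adjusted p = 0.0105, SE 0.29). *fermt1*, a kindlin that activates integrins, fell at a log2 fold change of −1.60 (adjusted p = 0.0018), the mechanosensitive linker *vclb* (vinculin) with −0.89 (adjusted p = 0.00746), *cav1* (caveolin) with −1.26 (adjusted p = 0.0088) and *sorbs3* (vinexin) with −0.75 (adjusted p = 0.0249). For *cav1* and *sorbs3* WT 4 was the highest library, and without it the log2 fold changes were −0.48 and −0.25. WT 4 was also the highest for *fermt1* (4919 normalized counts against 3054 to 3271 in WT 1–3). Filamin (*flna*) had 13705, 12744 and 13635 in WT 1–3, 11774 in WT 4 and 3699.7, 5073 and 5192 in double mutants 1–3. Every WT library was more than 2 times every double mutant, but the call (−1.34, adjusted p = 0.0431) was lost in 7 of the 9 fits without 1 library. Zyxin (*zyx*, −0.50, adjusted p = 0.0792) and talin (*tln1*, −0.68, adjusted p = 0.617) did not pass. The call was lost for *sorbs3* in 4 of the 9 fits without 1 library.

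Of 70 actomyosin and actin binding genes tested, 12 were lower DEGs (17.1%), all below every WT library, and none was higher. By the same edgeR test the share among genes with a symbol was 12%. DESeq2 called 25 of the 70 lower (35.7%), but it also called more genes lower in all (541 against 334). Its share among genes with a symbol is not given, so the 35.7% is not to be read against the 12%. *afap1l2*, an actin filament associated adaptor of Src, had 324, 266 and 296 in WT 1–3, 505 in WT 4 and 61.2, 86.2 and 91.8 in double mutants 1–3. WT 4 was the highest library, and the log2 fold change was −2.66 (adjusted p = 0.00353, SE 0.30). *ezrb*, an ezrin that ties cortical actin to the membrane, had 4013, 3636 and 3573 in WT 1–3, 4389.8 in WT 4 and 1624, 1828 and 1785 in double mutants 1–3. The spread within each group was small beside the fall of −1.33 (adjusted p = 0.00205, SE 0.13). *nexn* (nexilin) had 327, 297 and 212 in WT 1–3, 220.2 in WT 4 and 60, 78.3 and 67.8 in double mutants 1–3, with WT 4 among the lower WT libraries and a log2 fold change of −1.68 (adjusted p = 0.0159, SE 0.28). The filament gene *tpm4a* (tropomyosin) fell at a log2 fold change of −1.06 (adjusted p = 0.0122), *coro6* (coronin) with −1.54 (adjusted p = 0.0018), *lima1a* with −1.43 (adjusted p = 0.0124) and *svild* (supervillin) with −1.23 (adjusted p = 0.0128). WT 4 was the highest library for *tpm4a* (12242 raw counts against 11097, 10922 and 10135 in WT 1–3). For *coro6* WT 4 had 7125 normalized counts against 4669.6 to 5003 in WT 1–3. The falls of *tpm4a* and *coro6* were therefore smaller against WT 1–3. The myosin light chain kinase gene *mylk5* fell at a log2 fold change of −1.70 (adjusted p = 0.0301) and the non-muscle myosin heavy chain gene *myh9b* with −0.97 (adjusted p = 0.0405). *zgc:101810*, annotated as an actin-related protein 2 of the Arp2/3 complex that branches actin filaments, had 869, 1035 and 995 in WT 1–3, 1398 in WT 4 and 224, 188 and 305 in double mutants 1–3, and fell at a log2 fold change of −2.55 (adjusted p = 0.0018, SE 0.23). Leaving out 1 library ended the call of *mylk5* in 6 and *myh9b* in 6 of 9 fits.

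Further genes that act on actin and on cell polarity were named singly. *limk1a*, the kinase that stops cofilin from severing actin, had 605, 535 and 555 in WT 1–3, 609 in WT 4 and 121, 171 and 208 in double mutants 1–3. WT 4 lay close to WT 1–3, and the log2 fold change was −1.87 (adjusted p = 0.00651, SE 0.25). *mcf2b*, a guanine nucleotide exchange factor of the Dbl family, had 353, 394 and 246 in WT 1–3, 672 in WT 4 and 68.4, 2.27 and 6.26 in double mutants 1–3. It lies on chromosome 14 (7970234 to 7990513), as *yap1b* does, and had 311, 265 and 492 in the single mutants. Double mutants 2 and 3 were almost without reads while double mutant 1 was not, and the log2 fold change of −4.74 (adjusted p = 0.0301, SE 0.93) lost its call in 6 of the 9 fits without 1 library. The small GTPase gene *rnd1a* fell at a log2 fold change of −1.57 (adjusted p = 0.0018), the polarity gene *pard6a* with −1.21 (adjusted p = 0.00725) and *pard6b* with −0.77 (adjusted p = 0.0356). For *rnd1a* WT 4 was the highest library (6377 normalized counts against 4479 to 4769.9 in WT 1–3). *rock2b*, a kinase that drives myosin contraction, had 1158, 1006 and 1159.6 in WT 1–3, 1586 in WT 4 and 491, 769 and 793 in double mutants 1–3. Its groups did not overlap, but the log2 fold change of −1.21 (adjusted p = 0.0542) missed the threshold. *cdc42ep3* had 17.6, 12.5 and 14.5 in WT 1–3, 47.8 in WT 4 and 21.6, 17.02 and 25.04 in double mutants 1–3, and its sign turned without WT 4 (−1.17 against 0.51). Without 1 library the call was lost for *pard6b* in 7 of 9 fits.

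**Figure D3:**
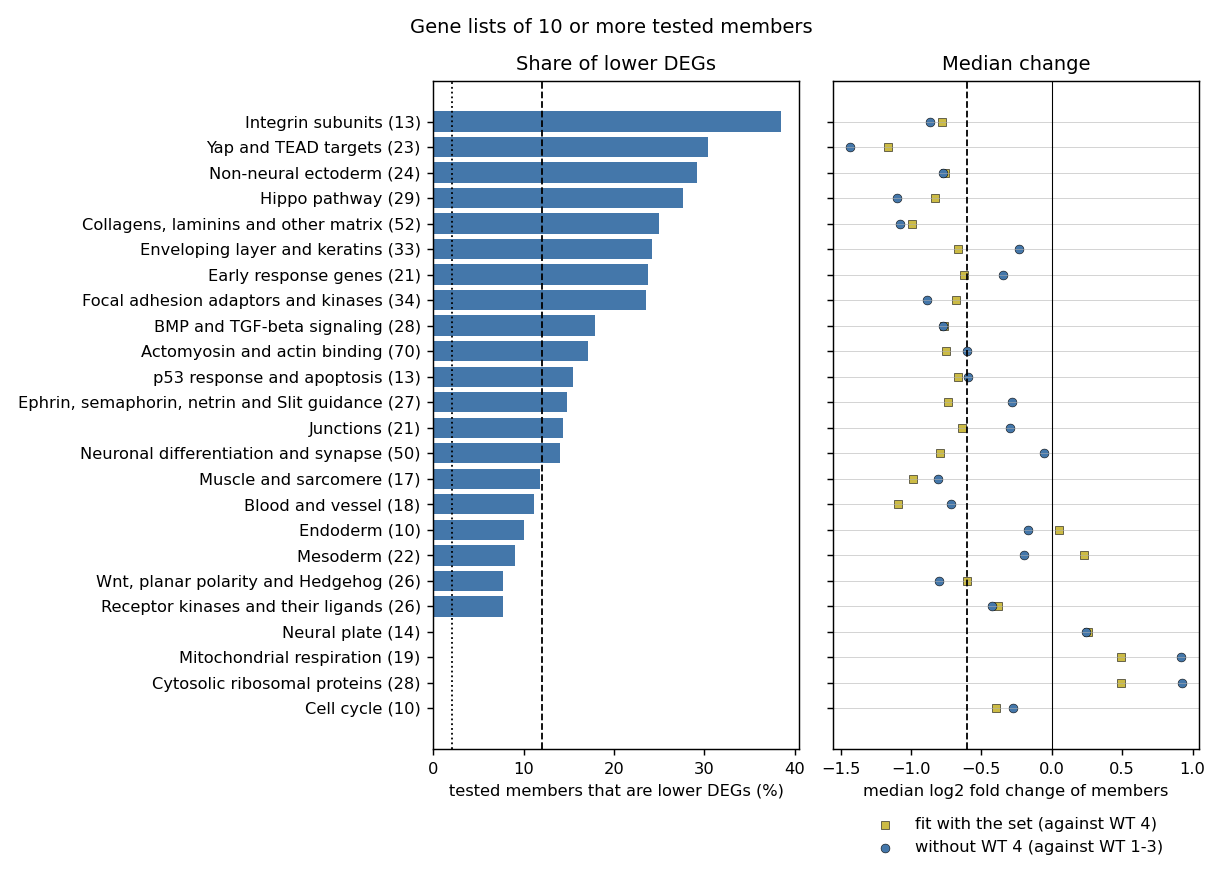
Left, the share of tested members that were lower DEGs in gene lists of at least 10 tested genes (number in parentheses), with the dashed line at the 12% of genes with a symbol and the dotted line at the 2.02% of all tested genes. Right, the median log2 fold change of the same members in the fit with the set (squares) and without WT 4 (circles), with the dashed line at the −0.60 of genes with a symbol. Integrin, Yap target, non-neural ectoderm, Hippo and matrix lists have the largest shares, and the neural plate, cell cycle, ribosomal protein and mitochondrial lists have none.

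Secreted signals and their receptors held some of the largest falls. The gene annotated as proepiregulin, a ligand of the EGF receptor, had 331, 317 and 253 normalized counts in WT 1–3, 347 in WT 4 and 24, 40.8 and 38.6 in double mutants 1–3. All WT libraries were at least 6 times every double mutant, and the log2 fold change was −3.32 (adjusted p = 0.0018, SE 0.31). The gene annotated as endothelin-3-like, a vasoactive peptide that also guides neural crest, had 468, 449 and 353 in WT 1–3, 737 in WT 4 and 109, 101 and 91.8 in double mutants 1–3. WT 4 was the highest library, and the log2 fold change was −2.87 (adjusted p = 0.00151, SE 0.23). *wnt6b*, a Wnt ligand of surface ectoderm, had 44.9, 44.5 and 40.8 in WT 1–3, 90.1 in WT 4 and 7.2, 10.2 and 12.5 in double mutants 1–3, and the guidance cue *sema3e* had 43.3, 35.6 and 42.6 in WT 1–3, 82.3 in WT 4 and 7.2, 9.08 and 7.3 in double mutants 1–3. Both were low in WT and lower in the double mutants, with log2 fold changes of −3.15 (adjusted p = 0.00353) and −3.37 (adjusted p = 0.00353). *angpt1* (angiopoietin) had 129, 76.5 and 76.2 in WT 1–3, 370.4 in WT 4 and 66, 39.7 and 56.3 in double mutants 1–3. Its log2 fold change of −2.78 (adjusted p = 0.0135) was −0.80 without WT 4. As lists, the 27 guidance genes held 4 lower DEGs (14.8%), the 26 Wnt, planar polarity and Hedgehog genes 2 (7.69%) and the 26 receptor kinase genes 2 (7.69%), against 12% of genes with a symbol. The netrin receptor *unc5b* fell at a log2 fold change of −1.02 (adjusted p = 0.0356) and the ephrin *efna1a* with −0.77 (adjusted p = 0.0467). The call was lost for *angpt1* in 1, *unc5b* in 6 and *efna1a* in 7 of the 9 fits without 1 library.

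Ventral and lateral ectoderm, the future epidermis, is set up by BMP signals. Among non-neural ectoderm genes 7 of 24 tested were lower DEGs (29.2%), all below every WT library, with a median log2 fold change of −0.76 (−0.77 without WT 4). *gata2a*, a ventral transcription factor, had 7435, 7923 and 7253 normalized counts in WT 1–3, 7233 in WT 4 and 2772, 3119.6 and 3394 in double mutants 1–3. WT 4 differed little from WT 1–3, every WT library was more than 2 times every double mutant, and the log2 fold change was −1.22 (adjusted p = 0.0051, SE 0.15). *tp63*, the master regulator of stratified epidermis, had 2845, 2966 and 2757 in WT 1–3, 2783 in WT 4 and 1449.6, 1185 and 1208 in double mutants 1–3. Its fall of −1.12 (adjusted p = 0.00722, SE 0.15) was almost the same against WT 1–3 (−1.16). *dlx3b*, of the ectoderm and its placode border, had 3944, 4014 and 3870.4 in WT 1–3, 5123 in WT 4 and 2954, 2741 and 2699 in double mutants 1–3. Here WT 4 was the highest library, and the log2 fold change of −0.87 (adjusted p = 0.0105) was −0.49 without it. *foxi1*, of ionocyte and placode precursors, had 1154, 1313 and 1181 in WT 1–3, 1138 in WT 4 and 821, 749.8 and 616 in double mutants 1–3. Its groups did not overlap, but it did not pass the test (−0.64, adjusted p = 0.257).

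The BMP ligand *bmp4* had 4529, 4307 and 3965 in WT 1–3, 4857 in WT 4 and 2008, 2268 and 2340.2 in double mutants 1–3. Its log2 fold change was −1.14 (adjusted p = 0.00516, SE 0.14). The ligand *bmp7a* fell with −0.996 (adjusted p = 0.0486), and the inhibitory Smads, which are induced by the pathway and damp it, fell with the ligands: *smad6b* with −1.02 (adjusted p = 0.0102) and *smad7* with −0.83 (adjusted p = 0.0261). The receptor gene *tgfbr2a* fell at a log2 fold change of −1.11 (adjusted p = 0.0327). Over BMP and TGF-beta signaling as a whole 5 of 28 tested members were lower DEGs (17.9%) and none was higher. Below all WT libraries lay 23 of the 28, against 45% of tested genes with a symbol. *chrd* (chordin), the dorsal antagonist of BMP, had 0.27 (adjusted p = 0.645). Leaving out 1 library ended the call of *bmp7a* in 6, *smad7* in 5 and *tgfbr2a* in 5 of 9 fits.

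Neural plate genes gave no DEG and mesoderm genes few. None of the 14 neural plate genes tested was a DEG by edgeR, DESeq2 or limma voom, 2 had an unadjusted p under 0.05 (1 lower and 1 higher, against 8.3% and 3.53% of all tested genes), and their median log2 fold change was 0.25 with the set and 0.24 without WT 4. *sox3*, a marker of the neural plate, had 5713, 5499 and 6193 in WT 1–3, 7195 in WT 4 and 9630.2, 8029 and 7780.2 in double mutants 1–3. The double mutants were the 3 highest libraries, but the log2 fold change was only 0.24 (adjusted p = 0.7, SE 0.18). *otx2b*, of forebrain and midbrain, had 0.19 (adjusted p = 0.696). Of 22 mesoderm genes, 2 were lower DEGs (9.09%). The median was 0.23 with the set and −0.20 without WT 4. The pan-mesodermal gene *tbxta* had 4128, 3990.1 and 3734 in WT 1–3, 2161 in WT 4 and 2087, 1748 and 2320.4 in double mutants 1–3, and the organizer gene *gsc* had 1661, 2056 and 1659 in WT 1–3, 1091 in WT 4 and 1097, 1037 and 1138 in double mutants 1–3. At both, WT 4 lay with the double mutants and WT 1–3 were higher. The log2 fold change of *tbxta* was −0.07 (adjusted p = 0.907) with the set and −0.95 without WT 4. For *gsc* WT 4 and the mean of the double mutants were equal to 3 digits (adjusted p = 0.999), and the value without WT 4 was −0.72. The other early markers *tbx16* (0.23, adjusted p = 0.79), *msgn1* (0.43, adjusted p = 0.709) and *myf5* (−0.01, adjusted p = 0.994) did not pass. Of the exceptions, *hand2*, a transcription factor of the lateral plate and heart field, had 136, 138 and 119 in WT 1–3, 356 in WT 4 and 57.6, 39.7 and 82.4 in double mutants 1–3. It was lower than in every WT library, and the log2 fold change of −2.57 (adjusted p = 0.0085) was −1.12 without WT 4. *dll4*, a Notch ligand of vessels, had −1.70 (adjusted p = 0.0322) with the set, but its double mutants overlapped WT 1–3. Among 10 endoderm genes the 1 lower DEG, *eml2*, turned sign without WT 4 (−1.86 against 1.18), and *sox17* (0.12, adjusted p = 0.831) and *sox32* (0.21, adjusted p = 0.623) did not pass. Without 1 library the call was lost for *dll4* in 7 and *eml2* in 5 of 9 fits.

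**Figure D4:**
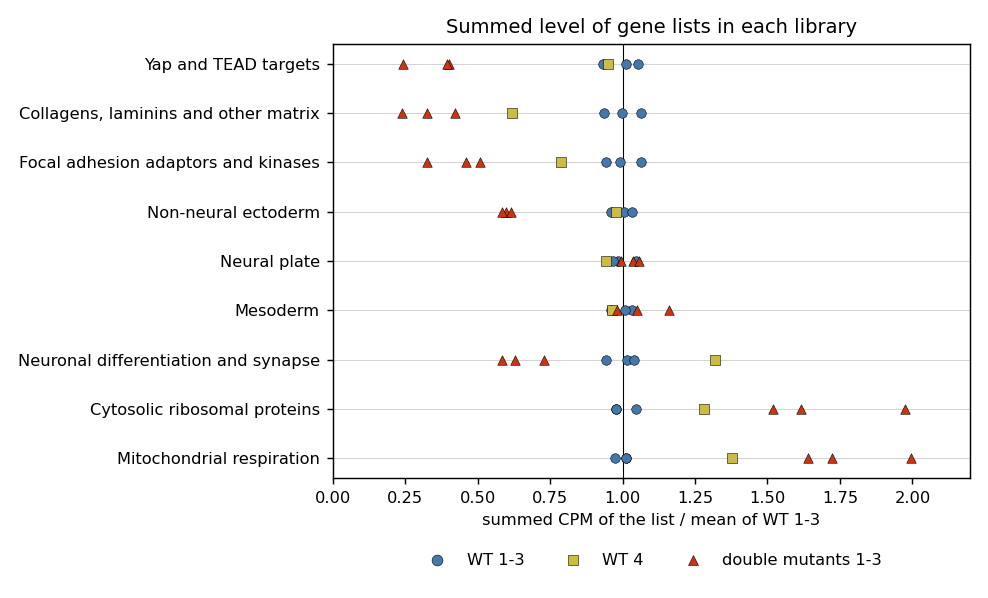
Summed CPM of each list divided by the mean of WT 1–3, with 1 marker per library (WT 1–3 circles, WT 4 square, double mutants triangles). The double mutants lie lowest for Yap targets, matrix, focal adhesion, non-neural ectoderm and neuronal lists, within or beside the WT range for neural plate and mesoderm, and highest for ribosomal proteins and mitochondrial respiration, where WT 4 lies between. Abundant genes weigh most in a sum, as *tubb5* does in the neuronal list.

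The enveloping layer is the outer epithelium of the fish gastrula. Of 33 of its genes and keratins tested, 8 were lower DEGs (24.2%) and 2 higher, and the median log2 fold change was −0.66 with the set but −0.23 without WT 4. *TGM1*, which cross-links the surface of cornified epithelium, had 1126, 1138 and 1137 in WT 1–3, 1959 in WT 4 and 157, 454 and 366 in double mutants 1–3. WT 1–3 were almost equal, WT 4 was higher, and double mutant 1 was the lowest, with a log2 fold change of −2.59 (adjusted p = 0.0088, SE 0.38). *anxa2a* (annexin) had 1105, 1203 and 1244 in WT 1–3, 1919.7 in WT 4 and 602, 498 and 362 in double mutants 1–3, with −1.98 (adjusted p = 0.00391, SE 0.23). *ppl*, which encodes the desmosome and keratin linker periplakin, had 24895, 26125 and 28398 in WT 1–3, 43155 in WT 4 and 17788, 22244 and 19737 in double mutants 1–3. The double mutants were below every WT library but nearer to WT 1–3, and the log2 fold change of −1.12 (adjusted p = 0.00888) was −0.41 without WT 4. The tight junction gene *cldn1* fell at a log2 fold change of −1.50 (adjusted p = 0.0092), with WT 4 as the highest library (2088 normalized counts against 1531 to 1566 in WT 1–3). For *spaca4l* and the desmosomal cadherin *DSG2*, only WT 4 was high and the values without it were −0.09 and 0.01. Summed over the list, WT 4 had 8071 CPM, WT 1–3 5311 to 6065 and the double mutants 3799 to 4754, and the part of these cells in the results was not tested. The 2 members that rose were *agr1*, described with the rises below, and *nccrp1*, an F-box associated protein. *nccrp1* had 513, 532 and 523 in WT 1–3, 1142 in WT 4 and 2762, 2032 and 2039 in double mutants 1–3, with 1.00 (adjusted p = 0.0341). Of 21 junction genes tested, 3 were lower DEGs (14.3%), namely *ppl*, *cldn1* and *DSG2*, and the median was −0.64 with the set and −0.30 without WT 4. The call was lost for *spaca4l* in 1, *DSG2* in 1 and *nccrp1* in 5 of the 9 fits without 1 library.

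Among early response genes 5 of 21 tested were lower DEGs (23.8%) and none was higher. The list moved both ways. Below all 4 WT libraries lay 11 of the 21 and above them 8, against 45% and 17.4% of tested genes with a symbol. The median log2 fold change was −0.62 with the set and −0.35 without WT 4. *klf6a*, a zinc finger factor, had 1722, 1597 and 1432 in WT 1–3, 2214 in WT 4 and 562, 672 and 601 in double mutants 1–3, and fell at a log2 fold change of −1.86 (adjusted p = 0.0018, SE 0.16). The kinase genes *pim3* (−1.37, adjusted p = 0.0088), *plk2b* (−1.31, adjusted p = 0.0151) and *plk3* (−0.99, adjusted p = 0.0224) and *JUND*, of the AP-1 factors that often act with TEAD (−1.94, adjusted p = 0.0408), fell too. In normalized counts WT 4 was the highest library for these genes, so that the falls were smaller against WT 1–3. In the p53 and apoptosis list 2 of 13 were lower DEGs (15.4%), and 7 lay below and 4 above all 4 WT libraries. *boka*, a pro-apoptotic relative of Bcl-2, had 8255, 9514 and 8259 in WT 1–3, 7617 in WT 4 and 2275, 2301 and 1925 in double mutants 1–3, with −1.81 (adjusted p = 0.0092, SE 0.27), and *cdkn1a*, the cell cycle inhibitor induced by p53, had −0.90 (adjusted p = 0.337). Of 10 cell cycle genes, 5 lay below and 3 above all 4 WT libraries. Their median log2 fold change was −0.40 with the set and −0.27 without WT 4. An unadjusted p under 0.05 was reached by 6 in the lower and 2 in the higher direction. Only *rrm1*, the large subunit of ribonucleotide reductase, was a DEG. It was higher, with 985, 1115 and 1029.9 in WT 1–3, 1132 in WT 4 and 2319.6, 1866 and 1965 in double mutants 1–3 and a log2 fold change of 0.86 (adjusted p = 0.047), and the call was lost in 7 of the 9 fits without 1 library. Leaving out 1 library ended the call of *plk2b* in 1, *plk3* in 2 and *JUND* in 7 of 9 fits.

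Several genes with narrow expression or metabolic roles stood out by their size. *ca15b*, a carbonic anhydrase known from germ plasm in zebrafish, had 6172, 6168 and 5873 normalized counts in WT 1–3, 6178 in WT 4 and 1070.4, 1151 and 1107 in double mutants 1–3. Within each group its values were close, and the log2 fold change of −2.48 (adjusted p = 0.000183, SE 0.14) was almost the same without WT 4 (−2.45). Of 4 germ cell genes tested it was 1 of 2 lower DEGs. The germ plasm gene *tdrd7b* fell at a log2 fold change of −1.10 (adjusted p = 0.0234), whereas *tdrd12*, of the piRNA pathway, had 647, 601 and 635 in WT 1–3, 358 in WT 4 and 728, 650.0 and 669.8 in double mutants 1–3. Its double mutants were above WT 1–3 by little, WT 4 was low, and the log2 fold change of 0.93 (adjusted p = 0.042) dropped to 0.12 without WT 4. *cyp26b1*, which breaks down retinoic acid, had 381, 299 and 327 in WT 1–3, 918 in WT 4 and 166, 105 and 129 in double mutants 1–3, with −2.78 (adjusted p = 0.00406, SE 0.32). *bco2a*, which cleaves carotenoids, had 176, 80.99 and 189 in WT 1–3, 123 in WT 4 and 1.2, 1.13 and 6.26 in double mutants 1–3. Its double mutants held few reads, and the log2 fold change was −5.32 (adjusted p = 0.00556, SE 0.67). *lck*, a Src family kinase best known from T cells, had 53.7, 33.8 and 58.02 in WT 1–3, 141 in WT 4 and 0, 0 and 7.3 in double mutants 1–3, and its log2 fold change of −5.71 (adjusted p = 0.0088) rests on few counts. Of 17 muscle genes 2 were lower DEGs (11.8%), *myom1b* (−3.69, adjusted p = 0.00829) and *tnnc1a* (−2.82, adjusted p = 0.00888), and of 18 blood and vessel genes 2 (11.1%), *lck* and *rh50* (−2.75, adjusted p = 0.0405). WT 4 was the highest library for *myom1b* (69.0 against 34.5 to 39.2 in WT 1–3) and *tnnc1a* (84.5 against 33.5 to 46.3). The same held for *rh50* (951 against 306 to 424). Without WT 4 the values of *myom1b*, *tnnc1a* and *rh50* were −2.81, −1.77 and −1.36. Without 1 library the call was lost for *tdrd7b* in 5, *tdrd12* in 7 and *rh50* in 7 of 9 fits.

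The remaining named falls spread over many functions. The synaptic scaffold gene *dlg4a* had 214, 345 and 171 in WT 1–3, 156 in WT 4 and 15.6, 11.3 and 21.9 in double mutants 1–3. Here WT 4 was the lowest WT library, and the log2 fold change was −3.24 (adjusted p = 0.00722, SE 0.45). *dlg4a* lies on chromosome 14 (14330340 to 14420042), as *yap1b* does, and had 283, 215 and 367 in the single mutants. The gene annotated as the LIM domain protein FHL1, an adaptor of actin and integrin complexes, had 229, 265 and 243 in WT 1–3, 256 in WT 4 and 49.2, 21.6 and 27.1 in double mutants 1–3, with −2.97 (adjusted p = 0.00576, SE 0.38). It is also on chromosome 14 (7758029 to 7774005), and the single mutants had 279, 175 and 197. Whether the position of *dlg4a*, *mcf2b* and the FHL1 gene on the chromosome of *yap1b* has a part in their falls was not tested. The gene annotated as hydroxycarboxylic acid receptor 2 fell at a log2 fold change of −3.55 (adjusted p = 0.00612), that annotated as methyltransferase-like protein 24 with −3.32 (adjusted p = 0.00674), the secretory pathway gene *jagn1a* with −2.63 (adjusted p = 0.00353), the Rab effector gene *sytl2a* with −2.67 (adjusted p = 0.0277) and *si:dkey-245n4.2* with −2.66 (adjusted p = 0.00479). Without WT 4 the values were −3.12, −2.90, −2.05, −0.93 and −0.93 in that order. *sytl2a* had 54.5, 61.4 and 66.2 in WT 1–3 and 202 in WT 4, and *si:dkey-245n4.2* had 123, 186 and 219 against 582. *GRXCR2*, a stereocilia protein gene named after its values were seen, had 21.7, 21.4 and 25.4 in WT 1–3, 24.5 in WT 4 and 0, 0 and 0 in double mutants 1–3. With no read in any double mutant library it was at least 6.45-fold lower, when 0 is read as 3 counts in a library. The call was lost for *sytl2a* in 5 of the 9 fits without 1 library.

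Genes of neurons are scarce at this stage. Of 50 tested, 7 were lower DEGs (14%), but only 3 lay below all WT libraries. *mapk10*, a neuronal JNK kinase, had 10.4, 5.34 and 12.7 in WT 1–3, 749.6 in WT 4 and 27.6, 21.6 and 35.5 in double mutants 1–3. WT 4 alone was high and the double mutants were above WT 1–3, so that the log2 fold change of −4.72 became 1.56 without WT 4. *rtn4rl2a* (−4.14 and 0.90) and *dclk1b* (−4.13 and 0.94) turned sign in the same way, and *cntn5* shrank from −2.18 to −0.40. Of the 3 that lay below all WT libraries, *myt1a* had 52.1, 66.8 and 73.4 in WT 1–3, 61.2 in WT 4 and 14.4, 13.6 and 18.8 in double mutants 1–3, with −1.96 (adjusted p = 0.0158), *tubb5* had −1.33 (adjusted p = 0.0105) and *cdk5r2b* −4.50 (adjusted p = 0.00556). WT 4 was the highest library for *tubb5* (9934 raw counts against 7201, 7703 and 6837 in WT 1–3). *cdk5r2b* had 24.1, 14.2 and 11.8 in WT 1–3, 70.1 in WT 4 and 2.40, 1.13 and 5.22 in double mutants 1–3. Its value without WT 4 was −2.45. Summed over the list, WT 4 had 704 CPM, WT 1–3 504 to 555 and the double mutants 312 to 389. No listed gene was at 0 in all WT or in all double mutant libraries. The abundant tubulin gene *tubb5*, which the study files under cytoskeleton organization, holds a large part of these sums. It had 4421, 3770 and 3457 raw counts in double mutants 1–3. The sums therefore do not give the level of neuron genes as a group. The part of the WT 4 excess in the DEGs of other lists was not tested. Leaving out 1 library ended the call of *cntn5* in 2 and *myt1a* in 1 of 9 fits.

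Genes of protein synthesis and respiration were higher without passing the test. None of 28 cytosolic ribosomal protein genes was a DEG by edgeR, DESeq2 or limma voom, and none had an unadjusted p under 0.05. Above all 4 WT libraries lay 26 of the 28, against 17.4% of tested genes with a symbol. The summed level of the 28 was 14939.5 to 16025 CPM in WT 1–3, 19627 in WT 4 and 23277 to 30234 in the double mutants. The median log2 fold change was 0.49 with the set and 0.93 without WT 4, where 24 were called higher. All 19 mitochondrial respiration genes lay above all 4 WT libraries, with no DEG by the same tools, 1 gene at an unadjusted p under 0.05 and medians of 0.49 and 0.92. WT 4 lay between WT 1–3 and the double mutants on both lists. Single mutants 1–3 had 27463, 17309 and 18920 CPM for the ribosomal list. For respiration they had 1826, 1214 and 1348 CPM, against 1791 to 2179 in the double mutants. Single mutant 1 thus lay within the double mutant range on both. It and double mutant 1 had the lowest TMM factors (0.887 and 0.903), and the part of library composition in these levels was not tested.

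The 47 higher DEGs are mostly without a name: 34 had no symbol, and 31 of these no description either. Among the named ones *zgc:171929* was the most extreme, with no read in any of the 4 WT or 3 single mutant libraries and 263, 279 and 265 normalized counts in double mutants 1–3. It was at least 80.6-fold higher, when 0 is read as 3 counts in a library. *il13ra2*, a decoy receptor for interleukin 13 in mammals, had 48.9, 49.8 and 39.9 in WT 1–3, 100.1 in WT 4 and 734, 649 and 505 in double mutants 1–3. The lowest double mutant was more than 5 times the highest WT library, and the log2 fold change was 2.65 (adjusted p = 0.00668, SE 0.36). The gene annotated as an H-2 class I histocompatibility antigen had 64.2, 45.4 and 76.2 in WT 1–3, 129 in WT 4 and 518, 406 and 352 in double mutants 1–3, with 1.72 (adjusted p = 0.0354), but such genes form families whose near-identical copies can share reads, so that the value is uncertain. *upf3a*, of nonsense-mediated mRNA decay, had 34.5, 37.4 and 32.6 in WT 1–3, 22.2 in WT 4 and 109, 159 and 197 in double mutants 1–3, and rose at a log2 fold change of 2.80 (adjusted p = 0.0322). Without 1 library the call was lost for *upf3a* in 6 and the H-2 gene in 5 of 9 fits.

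*p2ry8*, a G protein-coupled receptor gene, had 106, 121 and 63.5 in WT 1–3, 5.56 in WT 4 and 138, 221 and 218 in double mutants 1–3. WT 4 was almost without reads while WT 1–3 came close to the double mutants, so that the log2 fold change of 5.08 was 0.99 without WT 4. *agr1*, a relative of protein disulfide isomerases, had 2212, 2015 and 1921 in WT 1–3, 2132 in WT 4 and 7066, 5419 and 6134 in double mutants 1–3, with 1.54 (adjusted p = 0.0301, SE 0.30). Its values in WT 4 and WT 1–3 were alike and all double mutants were more than 2 times the WT range. *klhl24a*, a kelch-like substrate adaptor of a ubiquitin ligase, had 964, 871 and 1044 in WT 1–3, 774 in WT 4 and 2624, 1994 and 2039 in double mutants 1–3, with 1.52 (adjusted p = 0.0122, SE 0.24). The amino acid transporter gene *slc38a11* rose at a log2 fold change of 1.35 (adjusted p = 0.0273), the endoplasmic reticulum gene *rtn1b* with 1.20 (adjusted p = 0.023), the mitochondrial carrier gene *sfxn5b* with 1.13 (adjusted p = 0.0393), the gene annotated as hyaluronan binding protein 2 with 1.20 (adjusted p = 0.014) and that annotated as transducin-like enhancer protein 4, a co-repressor, with 1.07 (adjusted p = 0.0166). Of the unnamed rises, the largest log2 fold changes, picked after the values were seen, were those of ENSORLG00000001120, with 4.01, 3.56 and 4.53 in WT 1–3, 0 in WT 4 and 155, 202 and 270.2 in double mutants 1–3, and ENSORLG00000025188, with 0, 0.890 and 2.72 in WT 1–3, 0 in WT 4 and 221, 149.7 and 176 in double mutants 1–3. Both were near 0 in WT. The call was lost for *agr1* in 6, *slc38a11* in 2, *rtn1b* in 2 and *sfxn5b* in 7 of the 9 fits without 1 library.

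**Figure D5:**
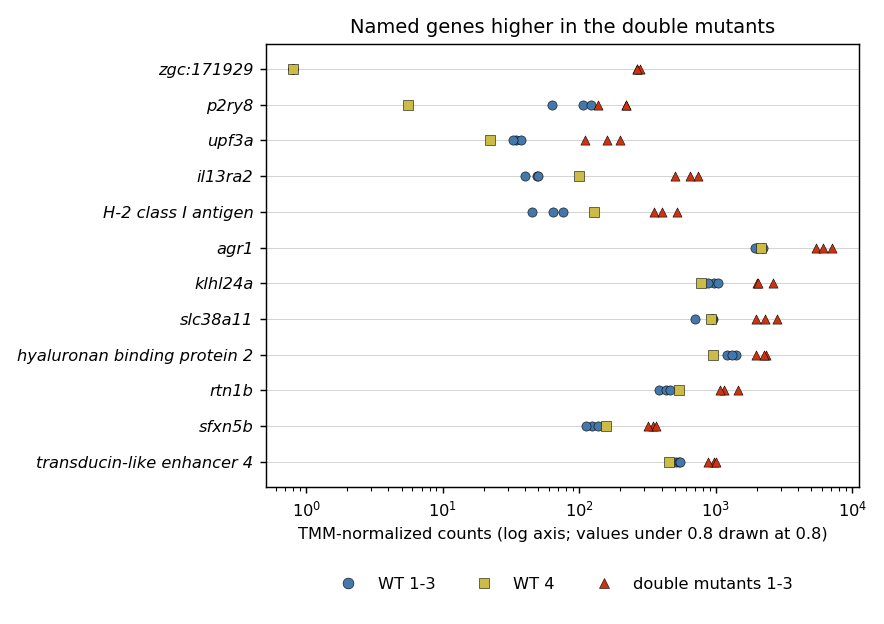
Normalized counts (log axis) of the 12 named genes that rose, in WT 1–3 (circles), WT 4 (square) and double mutants 1–3 (triangles), each marker 1 library. The double mutants lie right of all WT libraries in every row because the genes were picked that way. *zgc:171929* is at 0 in all 4 WT libraries, and at *p2ry8* WT 4 is far below WT 1–3.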

How the data were processed

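RNA-seq libraries (10 in all) were made from pooled stage 16 medaka embryos. Per the labels and the study's methods, the authors cut 12 bases and trimmed reads with Trimmomatic 0.39 (minimum length 50, mean quality 20), removed ribosomal reads with sortmerna 2.1, aligned with Hisat2 2.1, filtered with samtools 0.1.19 at mapping quality 60 and counted reads per gene on Ensembl 99 with htseq-count. The strand setting is not given in the sources used here, so overlapping and antisense genes cannot be told apart. The deposited values are raw counts per gene, before the batch correction (ComBat) of the study's own analysis. Rows for reads in no gene (10.6 to 11.3% of the total) and ambiguous reads (7.94 to 9.86%) were left out.

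Testing took the genes averaging 10 or more counts, with edgeR 4.0.16 in R 4.3.3 (TMM normalization, quasi-likelihood test, genotype plus the inferred set, Benjamini-Hochberg adjustment over all 16513 genes). Normalized counts are counts divided by the effective library size and multiplied by its mean. The script was tested on simulated counts. DESeq2 1.42.0, limma 3.58.1 (voom), other normalizations and filters, fits without the set or without WT 4, a replicate block and fits without 1 library were tried. The precision is set by the number of libraries, and floors for counts of 0 (3 counts per library) cover counting error only.

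Named genes were the targeted genes, the 25 largest falls and 12 largest rises among DEGs that lay beyond all 4 WT libraries, had a name and reached 50 normalized counts in the higher group, up to 8 DEGs per list by p, and genes that the study discusses. Symbols came from the pairs of identifier and name in the study's tables (2202 genes, of which 2118 were tested). The members and lists were chosen with earlier results of these data known. The authors' own fold changes and p-values were not used. Some results are not reported here.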

Additional observations from a re-analysis of the deposited data

Results flagged for a closer look

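Among the 4 WT libraries, a single library lay far from the other 3 at 32 of the 132 genes named. Chance gives such a gap in about 1 in 20 groups of samples, but that rate does not apply here: 122 of these genes were named as DEGs of a fit whose sole WT reference was WT 4, so that the choice of genes favours those where WT 4 is high. WT 4 was the high library at 28 of them and the low library at 2. Values are normalized counts in WT 4 against the range of WT 1–3. The genes of neurons with WT 4 high were *mapk10* (749.6 against 5.34 to 12.7), *rtn4rl2a* (147 against 3.21 to 5.44), *dclk1b* (100.1 against 0.890 to 4.01) and *cntn5* (238 against 61.0 to 75.3). The enveloping layer, junction and small GTPase genes with WT 4 high were *TGM1* (1959 against 1126 to 1138), *anxa2a* (1919.7 against 1105 to 1244), *cldn1* (2088 against 1531 to 1566), *DSG2* (6037 against 2828 to 3146), *spaca4l* (313 against 85.4 to 102) and *rnd1a* (6377 against 4479 to 4769.9). The adhesion, matrix and actin genes with WT 4 high were *cav1* (1542 against 862 to 927), *fermt1* (4919 against 3054 to 3271), *itga10* (131 against 1.78 to 8.16), *col1a2* (313 against 114 to 136), *emilin2b* (2801 against 1558 to 1766), *coro6* (7125 against 4669.6 to 5003), *ablim3* (517 against 234 to 278) and *cdc42ep3* (47.8 against 12.5 to 17.6). The ectoderm, signaling, mesoderm, endoderm and muscle genes with WT 4 high were *dlx3b* (5123 against 3870.4 to 4014), *wnt6b* (90.1 against 40.8 to 44.9), *sema3e* (82.3 against 35.6 to 43.3), *cyp26b1* (918 against 299 to 381), *hand2* (356 against 119 to 138), *dll4* (153 against 54.3 to 70.7), *eml2* (781 against 65.0 to 127) and *myom1b* (69.0 against 34.5 to 39.2). The remaining genes with WT 4 high were *il13ra2* (100.1 against 39.9 to 49.8) and *sytl2a* (202 against 54.5 to 66.2). WT 4 was low for *yap1* (5469.8 against 9028 to 9358) and *tdrd12* (358 against 601 to 647). WT 3 was the low library for *ca15b*, at 5873 against 6168 to 6178 in the others, and for *slc38a11*, at 697 against 928 to 947.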

How the results depend on the processing

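Against 334 lower and 47 higher DEGs, a fit with no set called 2163 lower and 1819 higher genes (256 and 37 of the DEGs among them), of which 1542 and 1529 lay beyond all 4 WT libraries, against 285 and 42. A fit with no set and without WT 4 called 3510 and 3672 (1823 and 1964 beyond). DESeq2 called 541 and 189 (449 and 151 beyond), including 326 of the lower and 46 of the higher DEGs. With only WT and double mutant libraries the higher counts were 79 and 70 beyond all WT. Left out singly, libraries gave 189 to 483 lower DEGs (171 to 401 beyond) and 23 to 91 higher DEGs (21 to 82 beyond), and 166 lower and 19 higher DEGs were called in all 9 such fits, as were 74 of the 122 named DEGs. WT 4 cannot be left out of the fit with the set, since no WT library would then share a set with the double mutants. With DESeq2 the lower count over all genes moved by more than 1.5 times (334 to 541). Among gene lists it did so for actomyosin (12 to 25), enveloping layer (8 to 13), non-neural ectoderm (7 to 11), junction (3 to 7), p53 and apoptosis (2 to 5) and blood and vessel genes (2 to 6). Such a move alone does not set a list apart. The log2 fold change of *yap1* was −0.89 by library size alone (adjusted p = 0.0531) and −0.89 to −0.75 without 1 library.

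WT and double mutant libraries share replicate numbers. Across genes, deviations from the group mean gave an r of −0.03, −0.06 and 0.07 for same-numbered libraries. Libraries with unlike numbers gave −0.131 to 0.164. With 3 libraries a group the deviations sum to 0 within it, so these values cannot show whether the numbers mark a pairing. The main fit assumed none. A replicate block in place of the set, without WT 4, called 3800 lower and 3695 higher genes (1955 and 1966 beyond). Signs turned in the fit without WT 4 and in that with the block for *cdc42ep3* (0.51 and 0.52), *eml2* (1.18 and 1.20), *dclk1b* (0.94 and 0.94), *mapk10* (1.56 and 1.56), *DSG2* (0.0088 and 0.0076) and *rtn4rl2a* (0.90 and 0.90). Near 0, *tbxta* ranged from −0.16 to 0.037 and *gsc* from −0.023 to 0.044 over the fits without 1 library, and *gsc* was 0.028 with RLE or DESeq2 and 0.0020 with no filter. With no set the medians of mesoderm (−0.12) and endoderm (−0.17) genes turned negative. The cause of these changes was not tested. RLE, voom, a mean count of at least 50 and the current form of the quasi-likelihood, the last chosen after seeing the data, left both DEG counts within 1.5 times. At 3 to 4 libraries a group, small changes were not detectable.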
